A study of Mus musculus with 4 samples.

Results

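Induced neural stem cells made with 13 factors, labelled iNSC_13F, were compared with mouse embryonic fibroblasts, labelled MEF, for every gene on the array. Members were the 34945 of 45101 probe sets that are named by one gene, which stand for 18193 genes, on 1 array for each side out of 4 arrays in the series. Total RNA was hybridised to Affymetrix mouse expression arrays, and each probe set has 1 signal, an array intensity on a linear scale. The induced cells were established cultures kept in serum-free N2 medium with 20 ng/ml EGF, 20 ng/ml bFGF and laminin. The labels do not name the 13 factors, their delivery or the cell that received them, although the series title names liver cells and B-lymphocytes of adult mice, and they give no culture medium, passage, strain or age for the fibroblasts. The series also holds an array of primary-derived neural stem cells, labelled NSC, and one of induced cells made with 14 factors, labelled iNSC_14F. Both entered the choice of probe set for each gene and the setting of the floor, and were otherwise used here only for context. The source label reads embryonic stem cells for every array, against the cell type label that was followed here. With 1 array for each group no difference has a replicate check, and none has an SD or a p-value.

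Fibroblasts are the matrix-building cells of connective tissue. They secrete fibrillar collagens and the enzymes that cross-link them, grip that matrix through integrins, and pull on it with actin bundles that share many proteins with smooth muscle. Neural stem cells grown in EGF and bFGF resemble the radial glia of the developing brain, with Sox, POU and bHLH transcription factors that hold the cells in a dividing state, and with a soft matrix made of lecticans and hyaluronan rather than fibrillar collagen. Both receptors of the added growth factors signal through the RAS and ERK kinase pathway.

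The comparison had more and larger differences downwards than upwards. A gene was measured where its signal exceeded a floor of 104.1, set from receptor genes of smell and taste, on at least 1 of the 2 arrays. Of 11764 measured genes, 431 were at least 4-fold higher in iNSC_13F than in MEF (3.66%), while 1091 were lower by 4-fold or more (9.27%). Higher genes were thus 28.3% of the called genes. At 16-fold there were 73 genes higher (0.621%) and 196 lower (1.67%). In all, 7467 genes (63.5%) were within 2-fold. Where the dimmer array lay at or below the floor the fold is a lower bound and is written "at least", which applied to 191 of the higher and 453 of the lower genes. Signals over 1000 on one array and below the floor on the other were found for 76 genes in iNSC_13F and for 184 genes in MEF. The median log2 difference of measured genes, iNSC_13F minus MEF, was 0.09. It was -0.079 after scaling to the hybridization controls, which were 1.14-fold brighter on the iNSC_13F array, and differences under 2-fold are therefore given as values only. Where both signals exceeded the floor, the median difference in either direction was 1.60-fold and the 95th percentile 6.27-fold. Between the arrays of the 2 induced samples, which differ in cells as well as in noise, the median difference was 1.26-fold and the 95th percentile 2.32-fold. That second value was exceeded by 2249 genes (25.1%) in the comparison with MEF. Where a gene called 4-fold higher had several measured probe sets, all of them were higher in 200 of 217 cases, and for lower genes all were lower in 588 of 633. These counts include the probe set that made the call, and over all 5219 genes with several measured probe sets the differences had one sign in 3920 (75.1%). Folds are those of the probe set chosen for each gene, and other probe sets of a gene can differ less, also by under 2-fold. The RNA is from whole cultures, in which fewer cells of a type and less RNA per cell cannot be told apart.

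**Figure D1:**
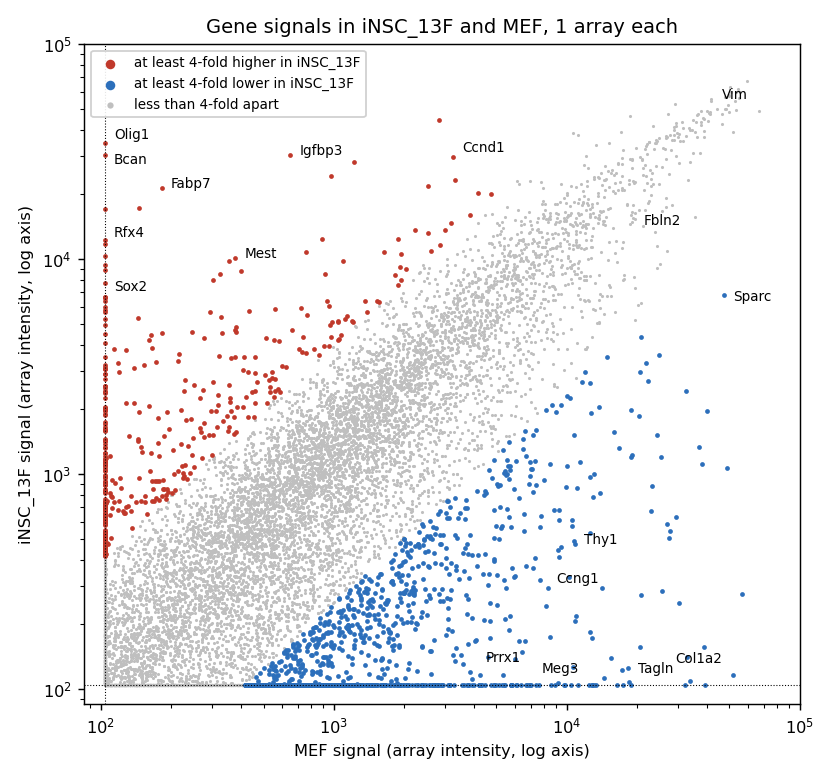
Signal of each measured gene in iNSC_13F (vertical, array intensity, log axis) and in MEF (horizontal, array intensity, log axis), with values below the floor drawn at the floor (dotted lines). The 431 red genes lie at least 4-fold higher in iNSC_13F and the 1091 blue genes at least 4-fold lower, and many of both sit on the floor of the other array, where their fold is a lower bound.

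The genes that exceeded MEF most included several of radial glia, of the neural matrix and of neural transcription, beside others with no such role. Olig1, a bHLH factor of ventral neural progenitors and the oligodendrocyte lineage, had a signal of 34636 in iNSC_13F against 8.53 in MEF, at least 333-fold higher. Bcan, which encodes the lectican brevican of brain matrix, had 30552 in iNSC_13F against 69.6 in MEF, at least 293-fold higher. Bex2, a small X-linked gene of brain, followed with 17042 in iNSC_13F against 62.8 in MEF. For each of these the MEF signal was in the range of the receptor genes that set the floor. Nptx1, which encodes a pentraxin secreted at synapses, had 12252 in iNSC_13F and 2.47 in MEF (at least 118-fold), and Spon1, which encodes F-spondin of the floor plate, had 10326 in iNSC_13F and 42.05 in MEF (at least 99.2-fold). The 4 probe sets of Spon1 spanned log2 differences of 0.45 to 6.63. Some glial genes were above the floor in MEF as well. Fabp7, the brain fatty acid binding protein of radial glia, stood at 21337 in iNSC_13F and 182 in MEF (117-fold), and Aldoc, the aldolase of astrocytes, at 17206 in iNSC_13F and 147 in MEF (117-fold). Next came Igfbp3, a secreted IGF binding protein, at 30434 in iNSC_13F and 651 in MEF (46.7-fold). The other genes with both signals over the floor that led the higher side spanned 36.7-fold to 25.04-fold and were, in order, Spsb4, Sox3, Rflna, Spry4, Slc15a2, Atp6v0e2, Mest, Tmem158, Syt11, Camk2b, Etv5 and Zic1. Slc15a2 is a peptide transporter of astrocytes, Syt11 a vesicle protein and Camk2b a kinase subunit of neurons. For genes with both signals over the floor, the naming rule required that all measured probe sets be higher. It did not require this of the bounds.

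The genes with the largest lower values included fibrillar collagens, contractile proteins and small calcium binding proteins, and also proteoglycans, growth factors and receptors. Col1a2, a chain of type I collagen, was at 116 in iNSC_13F against 51598 in MEF, 446-fold lower. Bgn, which encodes the matrix proteoglycan biglycan, was at 3.61 in iNSC_13F against 39133 in MEF (at least 376-fold). S100a6, a small calcium binding protein, was at 141 in iNSC_13F and 32707 in MEF (232-fold). These MEF signals were among the brightest on that array, while the iNSC_13F signals were at most slightly above the floor. Mgp, an inhibitor of calcification, was at 125 in iNSC_13F and 18322 in MEF (146-fold), and Serpinf1, which encodes the secreted factor PEDF, at 274 in iNSC_13F and 20915 in MEF (76.3-fold). Emp3, a membrane protein gene, was at 127 in iNSC_13F and 10604 in MEF (83.5-fold). Cthrc1, a secreted protein of wound fibroblasts, was below the floor in iNSC_13F with 12436 in MEF (at least 119-fold).

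**Figure D2:**
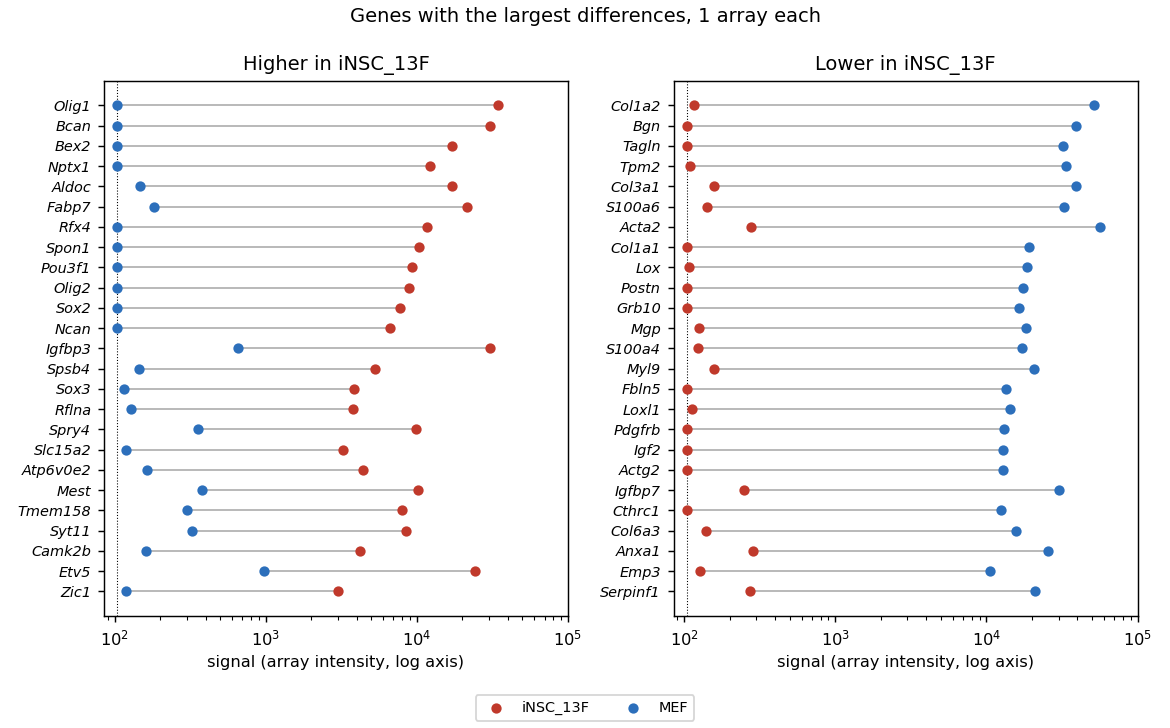
Signals (array intensity, log axis) in iNSC_13F (red) and MEF (blue) for the 15 genes with the largest difference where both signals exceeded the floor and the 10 with the largest bound, higher in the left panel and lower in the right, ordered by size. Olig1 and Bcan head the higher genes with MEF signals at the floor (dotted line), and Col1a2 and Bgn head the lower genes with iNSC_13F signals at or near it.

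The labelled identity of both samples was set against marker genes. Of 28 listed genes that mark radial glia and neural stem cells, 21 were measured, and 17 of these were at least 2-fold higher in iNSC_13F and 0 lower. Their median log2 difference was 4.29. Of all measured genes 15.6% were 2-fold higher and 20.9% lower, which is the reference for all list counts here. All 21 were above the floor in iNSC_13F, and 11 were in MEF. The other 10 were bounds, which could only come out higher, and over members above the floor on both arrays the median was 1.685. In every list, a member above the floor on 1 array only could not come out lower on that array. Sox1, Prom1, Pou3f2 and Nr2e1, which also mark neural stem cells, were below the floor on both arrays in every probe set. Nes, which encodes nestin, was at 1913 in iNSC_13F and 1022 in MEF, and Vim, which encodes vimentin, at 49531 in iNSC_13F and 53269 in MEF, differences under 2-fold, although the 3 probe sets of Nes spanned log2 differences of 0.90 to 1.42. Of 35 fibroblast and mesenchyme genes 32 were measured, with 25 at least 2-fold lower in iNSC_13F, 1 higher and a median log2 difference of -4.75. All 32 were above the floor in MEF and 16 in iNSC_13F, so the 16 bounds could not come out higher. Under the alternative settings the median lay between -4.85 and -4.35. In MEF the defining genes Col1a1, Col3a1, Thy1 and Pdgfrb were all bright, at 18978, 38978, 10813 and 13144. Pdgfra and Dcn, other fibroblast genes, were dim there, at 223 and 228, and Lum was below the floor.

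Transcription factors of neural progenitors differed by family. Of 10 measured Sox factors 8 were at least 2-fold higher, 0 lower, and the median log2 difference was 2.00. Sox2, a core factor of neural stem cells, was at 7699.6 in iNSC_13F against 68.9 in MEF (at least 73.96-fold), and its close relative Sox3 at 3821 in iNSC_13F against 114 in MEF (33.4-fold). Sox8 and Sox9, of the glial SoxE group, were at 3219 and 2666 in iNSC_13F against 50.9 and 303 in MEF. Sox4, already bright in MEF, differed by less than 2-fold, at 24502 in iNSC_13F and 15899.8 in MEF. Rfx4, an RFX factor of the neural tube, was at 11681 in iNSC_13F against 4.36 in MEF (at least 112-fold). The class III POU genes Pou3f1 and Pou3f3, drivers of neural progenitor programmes, were at 9343 and 6559 in iNSC_13F and below the floor in MEF, by at least 89.8-fold for Pou3f1 and at least 63.01-fold for Pou3f3. Their relative Pou3f4 was at 1253 in iNSC_13F against 59.4 in MEF (at least 12.04-fold). The 2 probe sets of Pou3f3 spanned log2 differences of 0.38 to 5.98. Zic1, Lhx2 and Nr2f1, which pattern the neural plate and cortex, were higher by 25.04-fold, 11.1-fold and 12.7-fold. In the list of POU, nuclear factor I and other neural factors 9 of 16 measured members were higher and 2 lower. Their median log2 difference was 2.99, against 0.23 over members with both signals over the floor. Among nuclear factor I genes, which drive gliogenesis, Nfia was 10.1-fold higher (1947 in iNSC_13F, 192 in MEF), while Nfib and Nfix differed by less than 2-fold in the probe set used and Nfic was 3.19-fold lower. In the bHLH list 5 of 15 measured members were higher and 3 lower, and the median log2 difference was -0.31. Hes6 was 7.41-fold higher, Olig2 at least 84.9-fold higher, and Id4, an inhibitor of bHLH factors, at least 11.1-fold lower (96.6 in iNSC_13F, 1152 in MEF).

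Mesenchymal transcription factors were lower in part. Of 28 measured members 16 were at least 2-fold lower and 1 higher, with a median log2 difference of -1.29. All 28 were above the floor in MEF and 15 in iNSC_13F, so the 13 bounds could not come out higher. Snai2, a zinc finger repressor of epithelial genes, was at 38.9 in iNSC_13F and 6047 in MEF (at least 58.1-fold). Prrx1, a homeobox factor of limb and craniofacial mesenchyme, was at 116 in iNSC_13F and 5357 in MEF (46.2-fold, with all 5 measured probe sets lower). Foxc2 and Twist2 were below the floor in iNSC_13F, with 3155 and 3084 in MEF. The paralogs of some of these genes did not follow them. Twist1 was at 1241 in iNSC_13F and 1638 in MEF, Foxc1 at 1548 in iNSC_13F and 918 in MEF, and Zeb1 at 1619.7 in iNSC_13F and 1105 in MEF, against Zeb2 at 29.4 in iNSC_13F and 581 in MEF (at least 5.58-fold lower). Msx1 was 3.15-fold higher (855 in iNSC_13F and 272 in MEF), while its paralog Msx2 was at 7.22 in iNSC_13F and 404 in MEF (at least 3.89-fold lower). Hox genes were counted by paralog group. Of the posterior groups 9 of 15 measured members were lower and 0 higher (median log2 difference -1.55), and 12 of the 15 values were bounds. Of the anterior groups 2 of 9 were higher, Hoxa2 at 793 in iNSC_13F against 155 in MEF and Hoxa3 at 954 in iNSC_13F against 146 in MEF, and 3 were lower, with a median log2 difference near 0. In the same cluster, Hoxa9 and Hoxa10 were at 18.6 and 20.5 in iNSC_13F and 1656 and 1477 in MEF.

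Genes of astrocytes, oligodendrocytes and neurons were read to see which neural classes the higher genes covered. Of 16 measured astrocyte genes 10 were at least 2-fold higher and 1 lower (median log2 difference 2.99). But 9 of these members were bounds, with 15 above the floor in iNSC_13F and 8 in MEF. Slc1a3, the glial glutamate transporter GLAST, was at 2416 in iNSC_13F against 53.99 in MEF (at least 23.2-fold), and Glul, glutamine synthetase, at 9767 in iNSC_13F against 1094 in MEF (8.93-fold). Mlc1 and Hepacam, partners in astrocyte junctions, were higher by at least 28.1-fold for Mlc1 and at least 9.93-fold for Hepacam. Genes of mature astrocytes were near the floor, with Gfap at 60.7 in iNSC_13F and 109 in MEF and Aqp4 at 118 in iNSC_13F and 11.7 in MEF. Gja1, the gap junction protein connexin 43 of both astrocytes and fibroblasts, was 2.67-fold lower (5036 in iNSC_13F and 13439.9 in MEF, with all 6 probe sets lower). Of 12 measured oligodendrocyte lineage genes 5 were higher and 4 lower. Beside Olig1, Olig2 and Sox8, Cnp was 4.897-fold higher, while Pdgfra and Cspg4, surface proteins of oligodendrocyte precursors, were at 7.52 and 203 in iNSC_13F against 223 and 2249 in MEF, and Mag, Mog and Sox10 were below the floor on both. Of 16 measured neuronal genes 4 were higher and 4 lower, and the median log2 difference was 0.39, against -0.13 with the floor at the 99th percentile of the receptor genes. Gap43 and Map2 were 4.49-fold and 4.35-fold higher, at signals of 1008 and 1185 in iNSC_13F. Tubb3 and Stmn2, cytoskeletal genes of young neurons, were 6.403-fold and at least 26.6-fold lower, with 989.7 and 2770.3 in MEF. Ncam1 was also lower, at 758 in iNSC_13F and 3711 in MEF (4.899-fold, with 4 of 5 measured probe sets lower). Dcx, Neurog2 and the vesicular glutamate transporters Slc17a6 and Slc17a7 were below the floor on both arrays.

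Surface proteins of neural cells were often above the floor in iNSC_13F only, which limits their counts. Of 16 neural adhesion molecules 9 were at least 2-fold higher and 3 lower (median log2 difference 1.58). But all 16 were above the floor in iNSC_13F and 6 in MEF, so 10 were bounds that could not come out lower. Over members above the floor on both arrays the median was -0.99. Gpm6a, a membrane glycoprotein of neural cells, was at 5254 in iNSC_13F and 5.04 in MEF (at least 50.5-fold), and Nrxn2, a neurexin, at 1579 in iNSC_13F and 76.6 in MEF (at least 15.2-fold). Cadherins differed in both directions. Cdh4, or R-cadherin, was at 5669.7 in iNSC_13F and 70.1 in MEF (at least 54.5-fold higher), and Cdh11, the cadherin of mesenchyme, at 39.2 in iNSC_13F and 9848 in MEF (at least 94.6-fold lower). Cdh2, or N-cadherin, which both cell types use, differed by less than 2-fold at 5079 in iNSC_13F and 4093 in MEF. Among ion channels 5 of 10 measured were higher and 0 lower, against 15.6% and 20.9% of all measured genes. But 8 of these channels were bounds, with 9 above the floor in iNSC_13F and 3 in MEF. Members above the floor in iNSC_13F only could not come out lower. Kcnd3, a potassium channel, was at least 19.3-fold higher and Cacng4, an auxiliary subunit of glutamate receptors, at least 10.9-fold higher. For Kcnd3 the 2 measured probe sets spanned log2 differences of 0.56 to 4.27. The gap junction gene Gjb2 was at least 25.3-fold lower (50.7 in iNSC_13F, 2634 in MEF).

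Genes of the fibroblast matrix were mostly lower in iNSC_13F. Of 27 measured collagen chains 23 were at least 2-fold lower in iNSC_13F and 2 higher, and the median log2 difference was -3.26. Col1a1 and Col3a1 were at 54.3 and 157 in iNSC_13F against 18978 and 38978 in MEF, at least 182-fold and 248-fold lower. The type VI collagen chains Col6a1, Col6a2 and Col6a3 were lower, Col6a1 by at least 41.6-fold, Col6a2 by at least 66.9-fold and Col6a3 by 112-fold. Network collagen of basement membranes differed less, with Col4a1 at 1987 in iNSC_13F and 18982 in MEF (9.55-fold). The higher chains were Col9a1 and Col9a3 of type IX collagen, at 340.2 and 578 in iNSC_13F and below the floor in MEF. Enzymes that make and cross-link collagen were lower for 12 of 17 members and higher for 1. The cross-linking oxidases Lox and Loxl1 were at 107 and 113 in iNSC_13F against 18580.5 and 14414 in MEF (173-fold and 128-fold). P4ha2, a prolyl hydroxylase of collagen, was at least 52.4-fold lower, while its chaperone Serpinh1 was lower by only 2.64-fold, at 9525 in iNSC_13F and 25176 in MEF. P3h2, another prolyl hydroxylase, was 5.74-fold higher.

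Elastic fibre and matricellular genes were lower for 12 of 18 measured members and higher for 2 (median log2 difference -3.04). But 8 of these members were bounds, and over members above the floor on both arrays the median was -0.49. Postn and Fbln5, which encode periostin and fibulin 5, were below the floor in iNSC_13F, with 17423 and 13411 in MEF (at least 167-fold for Postn and at least 129-fold for Fbln5). Thbs1, which encodes thrombospondin 1, was at 505 in iNSC_13F and 27589 in MEF (54.6-fold). Not all genes of fibroblast matrix were lower. Fbln2 was among the bright genes of both arrays, at 15275 in iNSC_13F and 19623 in MEF, as was Tnc, or tenascin C, a matrix protein of both radial glia and wound tissue, at 17912 in iNSC_13F and 19327 in MEF in its brighter probe set, although its other probe set had a log2 difference of -3.20. Fbln1 was 3.48-fold higher (1557 in iNSC_13F and 447 in MEF), and all 3 probe sets were higher. Proteoglycans differed in both directions. The neural proteoglycans Bcan, Ncan, Cspg5 and Ptprz1 were higher, Ncan at 6684 in iNSC_13F and 65.3 in MEF (at least 64.2-fold). Of the leucine-rich proteoglycans of connective tissue, Bgn, Fmod and Ogn were below the floor in iNSC_13F and at 39133, 6873 and 2684 in MEF. The lectican Vcan, or versican, was 7.32-fold lower and Cspg4 11.1-fold lower, while Prelp, another leucine-rich member, was at 119 in iNSC_13F and 156 in MEF. Over the whole list of 22 measured members, 5 were higher and 12 lower. Fn1, or fibronectin, was 20.4-fold lower but was measurable at 1954 in iNSC_13F, against 39881 in MEF. Hyaluronan synthase Has2 was below the floor in iNSC_13F with 1455 in MEF. Of the secreted sulfatases that trim heparan sulfate, Sulf2 was 4.16-fold higher, with 2 of 3 probe sets higher, and Sulf1 at least 18.4-fold lower.

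**Figure D3:**
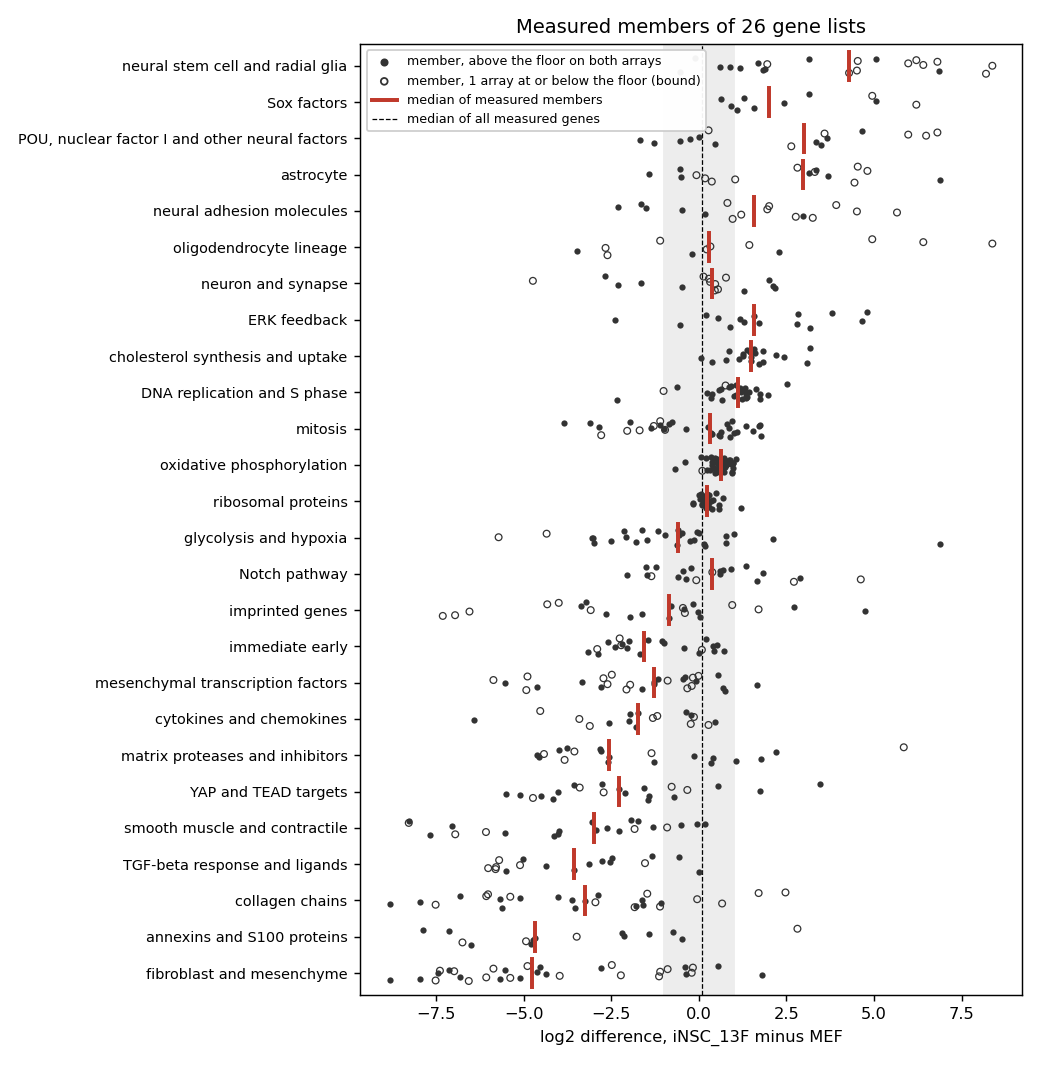
The log2 difference, iNSC_13F minus MEF, of each measured member (points) of 26 gene lists, with the list median (red bar), the median of all measured genes (dashed line) and the range within 2-fold (grey band). Open points are bounds, where 1 array was at or below the floor, and the medians run from 4.29 for neural stem cell and radial glia genes at the top to -4.75 for fibroblast and mesenchyme genes at the bottom.

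Contractile genes, which fibroblasts share with smooth muscle, were lower for 18 of 22 measured members and higher for 0, with a median log2 difference of -2.99. Acta2, smooth muscle actin, was at 276 in iNSC_13F and 56590.4 in MEF (205-fold), Tagln, or transgelin, at 6.08 in iNSC_13F and 32283 in MEF (at least 310.1-fold), and Tpm2, a tropomyosin, at 109 in iNSC_13F and 33719.9 in MEF (310.0-fold). Other probe sets of Acta2 and Tpm2 differed less, the least by log2 differences of -0.47 and -0.54. Myl9, a regulatory light chain of myosin, was at 157 in iNSC_13F and 20560.3 in MEF (131-fold), and Cnn2, a calponin, at 1193 in iNSC_13F and 18908 in MEF (15.8-fold). Their common regulator Srf, the serum response factor gene, was at 2420.1 in iNSC_13F and 2154 in MEF, a difference under 2-fold. Smtn was also nearly equal, and the nonmuscle myosin Myh9 was lower by 2.47-fold, so that the list was graded. Targets of YAP and TEAD, transcription regulators that respond to cell tension, were lower for 15 of 21 measured members and higher for 2 (median log2 difference -2.29). Ccn1 and Ccn2, which encode secreted matricellular proteins, were at 671 and 1070.0 in iNSC_13F and 23078 and 48902 in MEF (34.4-fold and 45.7-fold), and Ankrd1 at 28.9 in iNSC_13F and 2765 in MEF (at least 26.6-fold). Wwc1, an upstream Hippo component, went the other way at 3553 in iNSC_13F and 323 in MEF (10.99-fold higher). 

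Serum response factor binds the CArG box, and TEAD factors bind sites with the letters GGAATG, so the promoters of these 2 lists were searched for both motifs. Promoters were the RefSeq windows of GRCm38.p6, from 250 bases before to 50 bases after the start of each gene and both strands were searched. A match of one motif overlapped a match of the other in 6 of all 27025 promoters. The CArG box, in its strict form with an inner run of A and T only, was in 5 of 19 promoters of measured contractile genes (26.3%), namely Cnn2, Myl9, Vcl, Srf and Acta1. It was in 0 of 16 promoters of the YAP and TEAD list, in 1.63% of the promoters of all measured genes, in 3.17% of those of the genes called 4-fold lower and in 1.81% of all 27025 promoters. GGAATG was in 8 of 16 promoters of the YAP and TEAD list (50%) and in 10 of 19 of the contractile list (52.6%), against 14.1% for all measured genes, 16.1% for the lower genes and 16.6% for all promoters. A match describes the letters in a window and says nothing of the factors in these cells. The windows of 2 genes of each list are printed to show where the motifs lie, on the strand of the gene, with each match in capitals. Myl9 is at chr2:156775214-156775513 (plus strand) with its CArG box 161 bases before the start, and Cnn2 at chr10:79988350-79988649 (plus strand) with its box 56 bases before the start. Ankrd1 is at chr19:36119795-36120094 (minus strand) with matches 210 and 123 bases before the start, and Ccn1 at chr3:145649936-145650235 (minus strand) with 1 match on the opposite strand, 103 bases before the start.
Myl9: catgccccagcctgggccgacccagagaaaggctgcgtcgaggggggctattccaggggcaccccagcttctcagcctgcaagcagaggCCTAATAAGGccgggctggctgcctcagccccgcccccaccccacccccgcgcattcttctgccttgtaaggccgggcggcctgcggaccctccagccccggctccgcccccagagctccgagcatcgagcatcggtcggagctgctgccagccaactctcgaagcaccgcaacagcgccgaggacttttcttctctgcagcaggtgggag
Cnn2: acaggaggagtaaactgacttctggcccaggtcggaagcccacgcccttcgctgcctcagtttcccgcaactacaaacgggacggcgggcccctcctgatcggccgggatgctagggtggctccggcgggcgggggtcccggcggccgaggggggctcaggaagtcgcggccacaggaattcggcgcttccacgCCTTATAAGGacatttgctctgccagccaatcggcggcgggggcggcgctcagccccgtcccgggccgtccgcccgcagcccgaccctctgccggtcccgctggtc
Ankrd1: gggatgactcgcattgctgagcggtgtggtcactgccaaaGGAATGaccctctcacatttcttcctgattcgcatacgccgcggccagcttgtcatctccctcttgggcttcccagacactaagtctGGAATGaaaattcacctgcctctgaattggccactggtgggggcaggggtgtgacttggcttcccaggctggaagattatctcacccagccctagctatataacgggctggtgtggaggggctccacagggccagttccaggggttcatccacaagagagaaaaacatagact
Ccn1: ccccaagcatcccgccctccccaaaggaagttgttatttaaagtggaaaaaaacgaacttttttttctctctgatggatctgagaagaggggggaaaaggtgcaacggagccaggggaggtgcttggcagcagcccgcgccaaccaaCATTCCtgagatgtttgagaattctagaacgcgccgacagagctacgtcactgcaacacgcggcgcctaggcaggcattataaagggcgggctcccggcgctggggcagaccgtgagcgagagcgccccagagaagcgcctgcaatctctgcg

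TGF-beta, the main inducer of fibroblast matrix and contractility, had 15 of 17 measured response and ligand genes at least 2-fold lower and 0 higher, with a median log2 difference of -3.55. Inhba and Tgfb3, ligands of the family, were below the floor in iNSC_13F, with 5800.3 and 5401 in MEF. Pmepa1, Tgfbi and Skil, response genes, were lower by 20.6-fold, 32.2-fold and at least 34.3-fold. The receptor Tgfbr2 was at 2779 in iNSC_13F and 4088 in MEF, within 2-fold, while Tgfbr1 was 5.51-fold lower. In the BMP pathway 9 of 21 measured members were lower and 4 higher. The receptors Bmpr1a and Bmpr2 were 6.77-fold and 9.12-fold lower, and the ligands Bmp2 and Bmp7 were above the floor in iNSC_13F only, at 271 and 319. The response genes Id1 and Id3 were nearly equal, Id1 at 4124 in iNSC_13F and 5118 in MEF and Id3 at 11113 in iNSC_13F and 11906 in MEF.

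Cell surface and secreted proteins by which fibroblasts meet their surroundings were lower more often than higher. Of 14 measured integrins 7 were at least 2-fold lower and 1 higher. Itgb1, the shared beta chain of most matrix integrins, was at 541 in iNSC_13F and 6571 in MEF (12.1-fold, with all 3 measured probe sets lower). Itgb5 was 17.9-fold lower, and Itga6, a laminin receptor chain of neural stem cells, was at 1170.4 in iNSC_13F and 773 in MEF. Annexins and S100 proteins, which bind membranes or partners when calcium rises, were lower for 12 of 15 and higher for 1 (median log2 difference -4.68). Anxa1, Anxa2 and Anxa3 were lower by 90.2-fold, 27.8-fold and at least 107-fold, with MEF signals of 25679.6, 37144 and 11160.2. The higher member was S100b of glia, at 733 in iNSC_13F and 54.3 in MEF. Matrix proteases and their inhibitors were lower for 13 of 20 and higher for 4. Mmp2 and its activator Mmp14 were at 144 and 530.0 in iNSC_13F against 3513 and 12564 in MEF. The inhibitors Timp1, Timp2 and Timp3 were 15.7-fold, 7.11-fold and 13.6-fold lower, while Timp4 was at 6005 in iNSC_13F against 5.87 in MEF (at least 57.7-fold higher). The 2 plasminogen activators differed, Plat at 14741 in iNSC_13F and 3189 in MEF (4.62-fold higher) and Plau at 77.9 in iNSC_13F and 1219 in MEF (at least 11.7-fold lower).

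Members of the IGF system differed in both directions. The growth factor gene Igf2 was at 53.8 in iNSC_13F and 12910.1 in MEF (at least 124-fold lower). The 2 probe sets of Igf2 spanned log2 differences of -6.95 to -0.53. Of its secreted binding proteins, Igfbp2 was at 28178 in iNSC_13F and 1222 in MEF (23.1-fold higher) and Igfbp4 at 12803 in iNSC_13F and 4031 in MEF (3.18-fold higher), beside Igfbp3. Igfbp5, Igfbp6 and Igfbp7 were lower by 8.51-fold, at least 14.02-fold and 122-fold. For Igfbp5 the 2 probe sets spanned log2 differences of -3.09 to -0.07. The receptor Igf1r was within 2-fold, at 1393 in iNSC_13F and 1891 in MEF. Cytokines and chemokines were lower for 11 of 17 measured members and higher for 0. But 8 of these members were bounds, with 10 above the floor in iNSC_13F and 16 in MEF. Cxcl12, a chemokine of stromal cells, was at 106 in iNSC_13F and 9138 in MEF (85.98-fold, with 2 of 3 probe sets lower). Csf1, the macrophage growth factor, was at 886 in iNSC_13F and 5195 in MEF (5.87-fold). In the MHC class I and interferon list 6 of 14 were lower and 0 higher. B2m, the light chain of class I molecules, was 4.23-fold lower (3508 in iNSC_13F and 14853 in MEF), H2-D1 6.69-fold lower and Ifitm3 50.4-fold lower (217 in iNSC_13F and 10962 in MEF). For H2-D1 the 4 measured probe sets spanned log2 differences of -2.76 to -0.08.

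Growth factor signalling was read through receptors and response genes. Genes that ERK signalling induces and that feed back on it were at least 2-fold higher for 10 of 15 members and lower for 1 (median log2 difference 1.57). Spry4 and Spry2, inhibitors of the pathway, were at 9827 and 12338 in iNSC_13F and 354 and 889 in MEF (27.8-fold and 13.9-fold). Etv5, an ETS factor, was at 24369.8 in iNSC_13F and 973 in MEF (25.05-fold), and Dusp6, an ERK phosphatase, at 23260.5 in iNSC_13F and 3323 in MEF (7.001-fold). Immediate early genes, which the same kinases can switch on, did not follow, with 13 of 22 lower and 0 higher and a median log2 difference of -1.56. Egr1 was nearly equal on the 2 arrays at 12276 in iNSC_13F and 12114 in MEF, Fos was at 926 in iNSC_13F and 688 in MEF, while Egr2, Fosl1 and Dusp1 were 8.897-fold, at least 7.45-fold and 7.38-fold lower. The receptors of the added factors differed little, Fgfr1 at 2595 in iNSC_13F and 2225 in MEF and Egfr at 519.5 in iNSC_13F and 747 in MEF, with 3 of 6 probe sets of Egfr lower. Fgfr3, a receptor of glial progenitors, was 12.9-fold higher, although its 2 probe sets spanned log2 differences of 0.39 to 3.69. In a list of PDGF and VEGF genes that also held Kit and Kitl, 10 of 19 were lower and 1 higher. The higher member was Kit, at 337 in iNSC_13F and 11.1 in MEF, and no PDGF or VEGF gene was 2-fold higher. The receptor gene Pdgfrb was at 11.7 in iNSC_13F and 13144 in MEF (at least 126-fold lower).

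Genes of developmental signalling differed in both directions within families, as did all measured genes, with 15.6% at least 2-fold higher and 20.9% lower. In the Notch pathway 6 of 21 were higher (28.6%) and 5 lower (23.8%). The ligands Dll1 and Dll3 and the related Dner were at 684, 378 and 2566 in iNSC_13F and 74.9, 119 and 50.1 in MEF, while Jag1, the ligand of stromal cells, was 4.13-fold lower at 2092 in iNSC_13F and 8633 in MEF. The target Hes1 was within 2-fold, at 779.7 in iNSC_13F and 1005 in MEF. In the Wnt pathway 7 of 27 were higher (25.9%) and 8 lower (29.6%). The feedback gene Axin2 was at 504 in iNSC_13F and 97.8 in MEF (at least 4.84-fold higher), the receptor gene Fzd9 at least 13.7-fold higher and the secreted inhibitor Dkk3 at least 16.5-fold lower. In the Hedgehog pathway Gas1, a co-receptor, was 8.67-fold higher (21946 in iNSC_13F and 2532 in MEF), with log2 differences of 0.36 to 3.12 over its 3 probe sets. Gli3 was 3.47-fold lower, and the target Gli1 lay at the floor on both arrays. Among guidance genes 8 of 30 were higher (26.7%) and 13 lower (43.3%). Sema6d and Ntn1 were 16.6-fold and 16.3-fold higher, the second in 1 of its 2 probe sets, while Slit2 was at least 50.9-fold lower and Sema3c at least 10.2-fold lower. The 3 probe sets of Slit2 spanned log2 differences of -5.67 to -0.38. Of 11 measured genes of retinoic acid handling 5 were lower and 0 higher. All 11 were above the floor in MEF and 3 in iNSC_13F, so the 8 bounds could not come out higher. The binding proteins Crabp1 and Crabp2 were at 4226 and 4279.9 in MEF and below the floor in iNSC_13F.

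Metabolic genes were counted by pathway. Of 46 measured subunits of oxidative phosphorylation 1 was at least 2-fold higher and 0 lower, and the median log2 difference was 0.65, between -0.67 for Cox6a2 and 1.07 for Sdhc. Cholesterol synthesis and uptake genes were higher for 16 of 20 and lower for 0 (median 1.49 on the same log2 scale). Dhcr7 and Tm7sf2, late enzymes of the pathway, were 8.44-fold and 8.98-fold higher, and Idi1 was nearly equal at 1362 in iNSC_13F and 1302 in MEF. Fatty acid genes went both ways, with Acss2, which makes acetyl-CoA, 6.82-fold higher (1209 in iNSC_13F and 177 in MEF). The adipocyte binding protein Fabp4 was at least 13.7-fold lower, with 2 of 3 measured probe sets lower. In glycolysis and the hypoxia response 12 of 28 were lower and 3 higher. The glycolytic enzymes Ldha, Pgk1 and Pkm lay within 2-fold, with Ldha at 27953 in iNSC_13F and 30442 in MEF. The hypoxia targets Bnip3 and Ndrg1 were lower, Bnip3 at 775 in iNSC_13F and 6216 in MEF (8.02-fold) and Ndrg1 at 196 in iNSC_13F and 1623 in MEF (8.26-fold), while Egln1, an oxygen sensor that hypoxia also induces, was at 3393 in iNSC_13F and 1980.3 in MEF. The glucose transporter Slc2a1 was 4.37-fold lower. Stress genes of the unfolded protein and amino acid responses were lower for 11 of 23 and higher for 0. Nupr1 was at 72.5 in iNSC_13F and 10419.8 in MEF (at least 100.1-fold), the chaperone Hsp90b1 at 1000.4 in iNSC_13F and 13146 in MEF (13.1-fold) and Ddit3, or CHOP, at 325 in iNSC_13F and 3467 in MEF (10.7-fold). Ribosomal protein genes differed little, with 1 of 31 at least 2-fold higher, 0 lower and a median log2 difference of 0.23 that turned to -0.04 after subtracting a loess curve.

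Genes of the cell cycle were counted as DNA replication and mitosis lists. Replication genes were at least 2-fold higher for 18 of 30 members and lower for 2, with a median log2 difference of 1.11. The helicase subunits Mcm2 and Mcm3 were at 4869 and 6554 in iNSC_13F and 1232 and 1954 in MEF, and Ung, which removes uracil from DNA, was 5.73-fold higher. Cyclin D1, encoded by Ccnd1, was at 29677 in iNSC_13F and 3266 in MEF (9.09-fold higher), Cdk4 was 2.33-fold higher, and Cdk6 was at least 10.1-fold lower. Mitosis genes were higher for 6 of 34 and lower for 11, with a median of 0.31. Aurkb and Cenpa, of the centromere, were 3.41-fold and 2.895-fold higher and Cdk1 was at 13032 in iNSC_13F and 6151 in MEF. Smc2 and Smc4, the core subunits of condensin, were at 104 and 244 in iNSC_13F and 1514 and 2094 in MEF (14.5-fold and 8.57-fold lower). All their measured probe sets were lower, those of Smc2 by log2 differences of -3.86 to -0.31. The condensin subunits Ncapd2 and Ncaph were 3.29-fold and 2.52-fold higher. Mki67, the proliferation marker Ki-67, was at 179.7 in iNSC_13F and 1292 in MEF (7.19-fold lower). The same genes were bright on the NSC array, with 5836 for Smc2, 6113 for Smc4 and 5776 for Mki67, and dim on the iNSC_14F array, with 203, 400.3 and 385. Of 24 p53 targets and cell cycle inhibitors 11 were lower and 3 higher. Ccng1, a p53 target, was at 294 in iNSC_13F and 8290.0 in MEF (28.2-fold, with all 3 probe sets lower). Cdkn2b was 6.68-fold lower, while Cdkn1a and Cdkn2a lay within 2-fold.

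The genes that were low in iNSC_13F were longer in the genome than the rest. Measured genes were divided into 5 bins of equal size by genomic length in the GRCm38.p6 annotation, with 2350 genes in the longest bin. The percentage at least 4-fold lower in iNSC_13F was 6.38, 5.91, 7.66, 12.4 and 13.9 from the shortest to the longest bin, and the median log2 difference was 0.33 in the shortest and -0.29 in the longest. For iNSC_14F against MEF the percentages were 5.70, 5.49, 6.51, 9.83 and 11.9. For NSC against MEF they were 7.45, 6.60, 6.05, 6.68 and 8.47, with medians of -0.13 in the shortest and 0.07 in the longest bin. The gradient in the share of lower genes was thus smaller for NSC. These 3 comparisons share the MEF array and the same bins of genes, measured in iNSC_13F or MEF. Genes above the floor only on the NSC or iNSC_14F array are thus left out of all 3, which limits how far the gradients can be compared. The percentage at least 4-fold higher in iNSC_13F was between 2.98 and 3.66 in the 4 shorter bins and 5.23 in the longest. On this higher side the gradient was larger for NSC, from 3.36 in the shortest to 9.87 in the longest bin. For iNSC_14F the percentage higher was 4.43 in the shortest and 5.96 in the longest. The median genomic length was 39694 bases for lower genes and 26359 bases for higher genes, against 23504 bases for all measured genes. The array's own control probes, which report on RNA quality, gave a ratio of 3' to 5' signal of 1.53 in iNSC_13F and 1.42 in MEF for actin and of 0.806 in iNSC_13F and 0.775 in MEF for Gapdh, and the part of such differences in the length pattern was not tested.

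**Figure D4:**
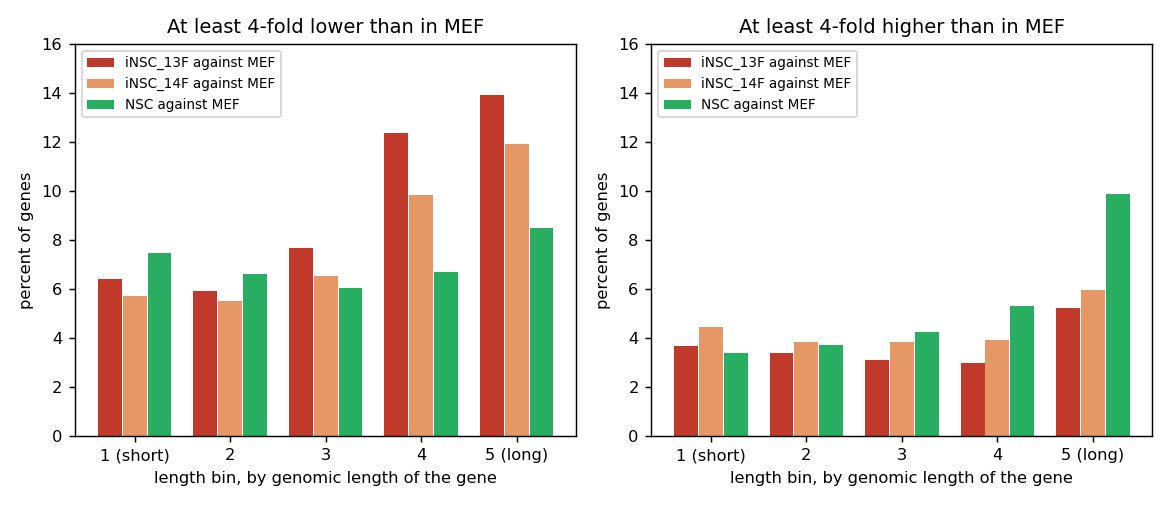
Percentage of genes at least 4-fold lower (left) or higher (right) than in MEF, by genomic length in 5 bins from shortest to longest, for iNSC_13F, iNSC_14F and NSC, which share the MEF array. All used the genes measured in iNSC_13F or MEF. The share of lower genes in iNSC_13F was 6.38% in the shortest bin and 13.9% in the longest, while for NSC it was 7.45% and 8.47%. The share of higher genes in these bins was 3.66% and 5.23% in iNSC_13F, and 3.36% and 9.87% in NSC.

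Neighbouring genes were called together in a few places. Among measured genes in genome order there were 5 runs of at least 4 neighbours that were all 4-fold lower, and 0 runs that were all 4-fold higher. Over all measured genes 9.27% were 4-fold lower and 3.66% higher, so lower genes had more occasion to form runs. Whether the number of runs exceeded what these shares give was not tested. On chromosome 14 the run held Ero1a, Psmc6, Styx, Gnpnat1 and Fermt2, with Psmc6, a proteasome ATPase, at 422 in iNSC_13F and 4167 in MEF, all 3 probe sets lower. On chromosome 10 it held Smpdl3a, Gcc2, Lims1 and Ranbp2, with Lims1, an adaptor of integrin adhesions, at 519.6 in iNSC_13F and 2871 in MEF and Ranbp2, a nuclear pore protein, at 159.6 in iNSC_13F and 1224 in MEF. For Lims1 the 4 measured probe sets spanned log2 differences of -2.47 to -0.07. On chromosome 2 the run held Zeb2, Acvr2a, Orc4 and Epc2. On chromosome 15 it held Ptger4, Dab2, Rictor and Osmr, and Osmr, the oncostatin M receptor, was at 36.7 in iNSC_13F and 2396 in MEF (at least 23.01-fold). On chromosome 6 it held Hoxa9, Hoxa10, Hoxa11 and the antisense transcript Hoxa11os, and it was the one run of related genes. Of the 21 genes in these runs, 15 were above the floor on the NSC array, 7 were within 2-fold of MEF there, and 8 were at least 4-fold lower in NSC than in MEF as well. The same counts were not made for the other genes called lower, so whether the genes in runs stand out is not known.

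Imprinted genes, which are read from one parental copy, were lower for 11 of 23 measured members and higher for 3. Meg3, Rian and Mirg, noncoding RNAs of one imprinted domain, were at 95.7, 38.7 and 55.6 in iNSC_13F and 9711, 2085 and 883 in MEF, and all 10 probe sets of Meg3 were lower. Grb10, a growth inhibitor, was at 57.9 in iNSC_13F and 16466 in MEF (at least 158-fold lower), and Plagl1, a zinc finger factor, at 498 in iNSC_13F and 5120.4 in MEF (10.3-fold lower). The 3 probe sets of Grb10 spanned log2 differences of -7.31 to -0.002. Mest went the other way, at 10138 in iNSC_13F and 379 in MEF (26.8-fold higher). On the other 2 arrays it was at 239.5 in iNSC_14F and 10175 in NSC, so that the 2 induced samples differed in this gene. Among splicing regulators Nova1, a neural RNA binding protein, was at least 11.04-fold higher. The muscleblind genes Mbnl1 and Mbnl2 were at 336 and 209.9 in iNSC_13F against 6034 and 4427 in MEF (17.97-fold and 21.1-fold lower, with 4 of 5 probe sets of Mbnl2 lower). Among chromatin regulators Dnmt1 and Dnmt3a, DNA methyltransferases, were 2.54-fold and 2.23-fold higher. Suz12, a Polycomb subunit, was 4.68-fold lower, and its 4 measured probe sets spanned log2 differences of -2.88 to -0.30. Its partners Ezh2 and Eed lay within 2-fold. Hmga2, a chromatin protein of embryonic cells, was 6.72-fold lower at 1055 in iNSC_13F and 7091 in MEF.

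Markers of other cell types were mostly near the floor on both arrays. Of 24 hepatocyte genes 4 were measured, and Alb, Afp, Ttr, Apoa1 and Hnf4a were below the floor on both. The highest hepatocyte signal in iNSC_13F was 269, for Cebpa, a factor of several tissues, against 59.4 in MEF (at least 2.58-fold higher). Cebpa was the 1 measured hepatocyte gene at least 2-fold higher, and 1, Krt18, was lower. Of 20 B lymphocyte genes 5 were measured, and Cd79a, Cd79b, Pax5, Ptprc and Rag1 were below the floor on both. Igll1 was the 1 measured member at least 2-fold higher in iNSC_13F, with a log2 difference of 1.02, and 0 were lower. Ebf1, a factor of B cells and of mesenchyme, was at 462 in iNSC_13F and 513 in MEF, and Ighm at 289.8 in iNSC_13F and 248 in MEF. Of 18 macrophage and microglia genes 4 were measured, none over 261, and of 12 endothelial genes 3. Of 20 pluripotency genes 7 were measured, and Pou5f1, Nanog, Zfp42 and Lin28a were below the floor on both arrays. Esrrb was above the floor in iNSC_13F only, at 256, and Klf4 was at 2264 in iNSC_13F and 4472 in MEF.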

How the data were processed

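Total RNA from 4 cell samples was measured on Affymetrix mouse arrays, and the arrays labelled iNSC_13F and MEF were compared. The deposited values are intensities, 1 linear signal per probe set, made with MAS5 per the submitters' processing notes, and had a 2% trimmed mean of 500 on each array. MAS5 applies 1 factor to an array, so differences that vary with brightness stay in the values. Per-sample columns of no mapped sample numbered 0.

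Probe sets took their gene from the platform annotation, with 34741 matched by gene ID to RefSeq names of GRCm38.p6. There were 932 probe sets with several genes, 9160 with none and 64 controls, all left out. Each of 9010 genes with several probe sets was represented by the one whose log2 signals averaged highest on the 4 arrays. The floor was taken from 84 probe sets of odorant, vomeronasal and taste receptors, as their 95th percentile on the array where it was highest, and signals were raised to it before log2. Genes were called by size, at 4-fold, with lists counted at 2-fold, and no test was possible with 1 array per group. The number of arrays limits the precision.

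Named genes were the 15 largest differences each way with both signals over the floor and all measured probe sets in that direction, the 10 largest bounds each way, any member of 73 gene lists, and genes in runs of at least 4 called neighbours. The comparison and the lists were chosen with earlier results of these data known. Alternatives were quantile normalization, scaling to hybridization controls, a loess curve, floors at the 75th and 99th percentile, a pseudocount of 16 in place of the floor, genes with both signals over the floor, the median signal of all probe sets of a gene, the brightest probe set over the 2 arrays, and leaving out probe sets with shared suffixes. Python 3.11.15, pandas 2.3.3, numpy 2.4.6 and statsmodels 0.14.6 were used.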

Additional observations from a re-analysis of the deposited data

Results flagged for a closer look

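Probe sets that no gene names were left out of the comparison, and some of them differed between the 2 arrays. Of 9160 such probe sets 1991 exceeded the floor somewhere among the 2 arrays. Here 42 were at least 4-fold higher in iNSC_13F than in MEF (2.11%) and 117 were at least 4-fold lower (5.88%), the largest by 89.9-fold and 289-fold. They were singled out because they hold signal that no gene-level result uses. The shares are of probe sets and those of the report are of genes, so the 2 cannot be set against each other directly. Among 932 probe sets named by several genes, 563 were measured, with 11 higher and 29 lower.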

How the results depend on the processing

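The counts of genes at least 4-fold apart depended on how dim signals and probe sets were handled and less on scaling. Against 431 genes higher and 1091 lower, there were 799 higher with no floor and a pseudocount of 16, and 240 higher and 638 lower where both signals exceeded the floor and fewer genes were tested. With the median over a gene's probe sets 680 genes were lower. Under the other alternatives both counts were within 1.5 times of those reported, and lower genes outnumbered higher ones under all 10. The median log2 difference of measured genes, 0.09, was -0.079 with scaling to the hybridization controls and -0.029 with a loess curve subtracted. Of 3 list medians that changed sign from at least 2-fold, skeletal muscle genes (4 measured) were at 0.24 with a floor at the 75th percentile and 0.10 with no floor, and neural adhesion molecules at -0.99 over members with both signals over the floor. Among named genes the log2 differences of Fabp4 and Sulf2 turned to 0.28 and -0.28 without probe sets ending in _s_at, _x_at or _a_at. The cause of these changes was not tested. Of 2687 values of named genes under the alternatives, 2303 were within 1.5-fold of those reported, 382 moved further without changing sign from a 4-fold call, and the 2 of Fabp4 and Sulf2 reversed. No paired analysis was possible because each group has 1 array and no replicate numbers. Precision is limited by 1 array a group and, for dim genes, by the signal over background.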

Other observations

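Cytoskeletal and nuclear proteins that occur in both cell types differed by isoform. Of 24 measured tubulin, kinesin and microtubule genes 6 were at least 2-fold higher in iNSC_13F (25%) and 8 lower (33.3%). Over all measured genes the shares were 15.6% and 20.9%. Tubb2b, a tubulin of neural progenitors, was at 23140.1 in iNSC_13F and 6957 in MEF (3.33-fold higher), and Dpysl3, a collapsin response mediator, at 242 in iNSC_13F and 8170.0 in MEF (33.7-fold lower). The B-type lamin gene Lmnb1 was at 6398 in iNSC_13F and 1740.4 in MEF (3.68-fold higher), and Lmna, which encodes the A-type lamins of stiff tissues, at 2259 in iNSC_13F and 10294 in MEF (4.56-fold lower, with all 4 probe sets lower). Ina, or alpha-internexin of neurons, was at least 8.78-fold higher. The keratins Krt18 and Krt19 were lower, by at least 5.61-fold for Krt18 and at least 7.34-fold for Krt19, with MEF signals of 584 and 764.

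Genes of redox and metal handling and of amino acid transport also differed in both directions. In the Nrf2 and glutathione list 6 of 22 measured members were higher (27.3%) and 5 lower (22.7%), against 15.6% and 20.9% of all measured genes. Cbr3, a carbonyl reductase, was at 2438 in iNSC_13F and 461 in MEF (5.29-fold higher), and Gpx8, a glutathione peroxidase of the endoplasmic reticulum, at 683 in iNSC_13F and 4856 in MEF (7.11-fold lower). The metalloreductase genes Steap1 and Steap2 were below the floor in iNSC_13F, with 1872 and 1542 in MEF. Slc38a3, a glutamine transporter of astrocytes, was at 1449 in iNSC_13F and 14.3 in MEF (at least 13.9-fold higher), and Slc7a3, a transporter of cationic amino acids, was at least 14.4-fold lower. Of 325 measured long noncoding RNAs 9 were at least 4-fold higher (2.77%) and 14 at least 4-fold lower (4.31%), against 3.71% and 9.41% of 11366 protein-coding genes.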
